A study of Rattus norvegicus with 3 samples.

Results

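The liver methylomes of newborn rats were compared in 3 pairs, and 376 regions stood in all 3 of the resulting lists, with MLP above C, MLP above MLP-F and MLP-F above C. They were chosen by the measured lists themselves, as regions of the MLP vs. C list on chromosomes 1 to 20 that shared 1 bp or more with regions of both other lists, MLP vs. MLP-F as well as MLP-F vs. C. They made up 376 of 34126 MLP vs. C regions on these chromosomes, and the 3 lists together held 95306 regions. Because the rule used all 3 contrasts, their order (MLP above MLP-F above C) and their scores are a description and were not tested.

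The offspring were male Wistar rats aged 1 day. Dams of the C group ate a normal diet, those of the MLP group a low protein diet and those of the MLP-F group the low protein diet with added folate. Each group was 1 library, made from liver DNA pooled over 6 animals by the sample labels (the study's text gives a larger number), and the study took 1 litter per diet. Diet, litter and library therefore cannot be told apart, there is no replicate check, and no cell type of the liver was separated from the others.

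DNA methylation is a mark on cytosine, mostly where it precedes guanine. It is copied at cell division, is dense over repeats and in many gene bodies, and is usually sparse at active promoters. Folate feeds the one-carbon cycle that makes the methyl donor, and the liver is its main site. In MBD-seq a methyl-CpG binding domain pulls methylated fragments out of sheared DNA before sequencing. A larger share of a library's reads at a region thus means that the region made up more of the DNA captured for that library. MACS, the program used by the authors to call regions, takes one library as treatment and another as control. The deposited score is 10 times the -log10 of its p, and a score of 50, the lowest in each list, stands for 1e-05. The highest score, 3100, was held by 5 regions in each of the lists made with MLP as treatment, so it may be a ceiling, and ties or ratios at 3100 are limited by it. The lists were drawn at this p and carry no FDR, so to be listed is not taken here as a call by FDR. The study's text also describes a larger deposited collection, at a looser FDR than the sets it went on to analyse. Whether these lists are that collection was not checked. The sets that the study selected by FDR, used below for names, come from both lists made with MLP as treatment. The study also compared MLP-F with C and reported that it found no differentially methylated regions there. MLP-F above C, which the rule required of every region described here, therefore had no call in the study itself. A score measures how far read numbers differ and not the level of methylation, and it also grows with the depth of both libraries and with length. The lists give no read counts, so depth is not known from them. By the study's records the libraries rank MLP, MLP-F and C from deepest to shallowest, the same order as in the regions described here, and the part of depth in the result was not tested. Regions with fewer reads in the treatment library were not analysed here.

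Sfmbt1 encodes a polycomb-related protein with mbt repeats that bind histone tails, and one of its introns holds one of the 376 regions (rn4 chr16:6176260-6178343, 2084 bp). Sfmbt1 is the only gene named among them for which primers for bisulphite sequencing were listed by the study, on the complement strand, and these are shown because they are the only sequence of the 376 regions held in the sources used here. The bisulphite reads were not analysed here. By bisulphite sequencing the study reported a significant difference between C and MLP at every locus it checked except Sfmbt1. The scores of this region come from MBD-seq alone and are not backed by bisulphite sequencing. Bisulphite treatment turns unmethylated cytosine into uracil, which is read as thymine.
Sfmbt1 forward primer: agtttgttggttggattagatag
Sfmbt1 reverse primer: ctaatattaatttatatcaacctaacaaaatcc
The forward primer has 23 bases with 0 C and 8 G, and the reverse primer has 33 bases with 7 C and 0 G. Neither holds a CG. Whether the genome holds a CG at the sites they pair with was not checked, so whether pairing depends on methylation is not known here. The study remarked that the forward primer falls in repeats and the reverse primer in unique sequence. The scores of the region were 2905 in MLP vs. C, 2030.0 in MLP vs. MLP-F and 61.1 in MLP-F vs. C. It was thus among the 6 highest of the 376 in the first and second list, while its MLP-F vs. C score was under the median of the 376.

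The 376 regions were few in each list. They were 1.10% of the MLP vs. C list (95% Wilson interval 0.996 to 1.22%), 1.19% of the MLP vs. MLP-F list (376 of 31671) and 1.55% of the MLP-F vs. C list (377 of 24305). In the MLP vs. C list as a whole, 39% of regions overlapped the MLP vs. MLP-F list and 22.7% the MLP-F vs. C list, and 1.1% overlapped both. The other MLP vs. C regions fell into 12946 also found in the MLP vs. MLP-F list only, 7380 also found in the MLP-F vs. C list only and 13424 found in neither. All intervals on shares cover counting error over regions only, and regions of 1 library are not replicates of a diet.

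Scores in MLP vs. C were far above those of the rest of the list. The 376 regions ranged from 50.7 to 3100 with a median of 286 (interval of the median 271 to 302), while all regions of the list had a median of 77.0. The median was 90.3 for regions also in the MLP vs. MLP-F list only, 85.4 for those also in the MLP-F vs. C list only and 66.1 for those in neither. A score of 200 or more was held by 295 of the 376 (78.5%), and by 6.23% of the list. The rule used this list, so these medians and shares describe the selection and nothing more is read from them.

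In the lists that set MLP-F against one of the others the same regions scored near the medians of those lists. In MLP vs. MLP-F their scores ran from 50.1 to 3100 with a median of 77.8, beside 81.4 for the whole list, and 126 of them (33.5%) scored 100 or more, beside 36.3% of the list. In MLP-F vs. C they ran from 50.04 to 257 with a median of 66.5, beside 69.3, and 79 of them (21%) scored 100 or more, beside 18.8%. Both shares were near those of the lists. Scores below 60 in at least one of these lists were held by 196 of the 376, and only 36 regions scored 100 or more in all 3 lists.

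**Figure D1:**
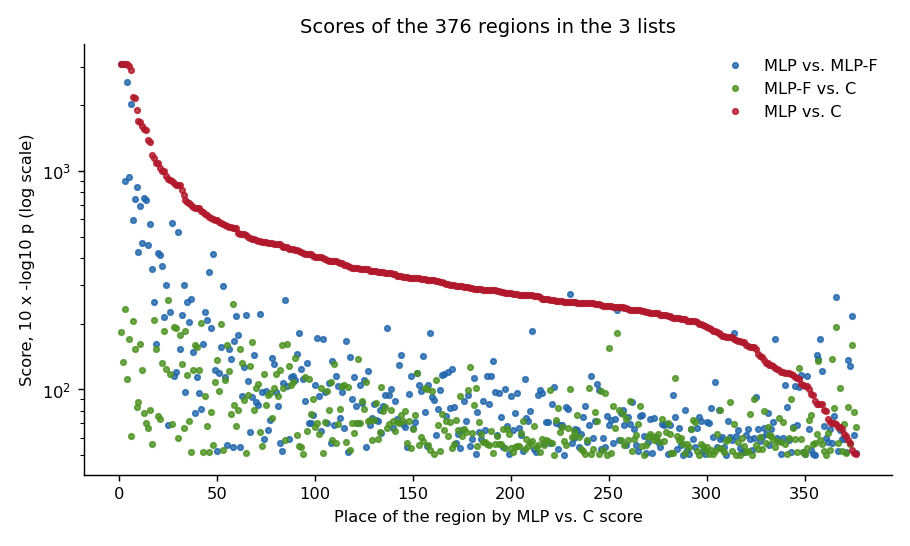
Score of each of the 376 regions in the 3 lists (log scale), with regions placed from left to right by their MLP vs. C score; red points are MLP vs. C, blue points MLP vs. MLP-F and green points MLP-F vs. C. The red points lie above both other colours for 354 regions, and the blue and green points crowd between 50 and 100 along most of the axis.

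The share of MLP vs. C regions that stood in all 3 lists was larger at higher scores up to 500 and level above. It was 24 of 23642 regions (0.102%) with scores under 100, 27 of 6138 (0.440%) from 100 to under 150 and 30 of 2221 (1.35%) from 150 to under 200. It was 125 of 1399 (8.94%, interval 7.55 to 10.5%) from 200 to under 300 and 105 of 528 (19.9%, 16.7 to 23.5%) from 300 to under 500. Of 132 regions from 500 to under 1000, 43 (32.6%, 25.2 to 41.0%) were in all 3 lists, and of 66 regions with 1000 or more, 22 (33.3%, 23.2 to 45.3%) were. The intervals of the last pair overlap over most of their range. Since the MLP vs. C list is one that the rule used, this rise is not independent of the rule and describes the selection.

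**Figure D2:**
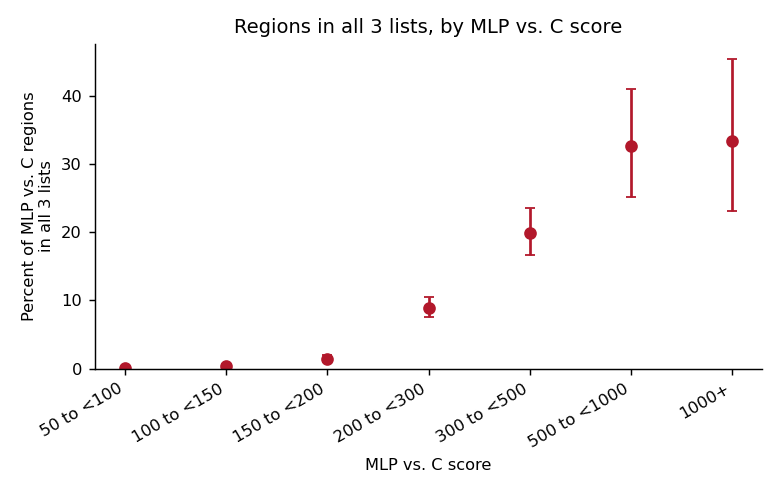
Percent of MLP vs. C regions on chromosomes 1 to 20 that were in all 3 lists, for 7 ranges of the MLP vs. C score; points are shares and bars are 95% Wilson intervals. The share climbs from 0.102% below a score of 100 to 33.3% at 1000 or more, and the intervals of the last 2 ranges overlap.

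The order of the scores within a region was alike in nearly all of them. MLP vs. C spans the differences of both other lists and the rule used all 3. This order and the ratios below are therefore not independent of the rule and describe the selection. The MLP vs. C score was the highest of the 3 in 354 regions (94.1%, interval 91.3 to 96.1%), the MLP vs. MLP-F score in 13 and the MLP-F vs. C score in 7, and in 2 regions both lists made with MLP were tied at 3100, the highest score of either list. The MLP vs. C score was a median of 3.12 times the higher of the other 2, with a range of 0.245 to 6.75. It was at least as large as their sum in 331 regions and smaller in 45, and the median ratio to the sum was 1.89. The largest ratio to the higher of the other 2 belonged to an intronic region of Setd7, with scores of 1093, 162 and 154, and the smallest to a region on chromosome 8 (chr8:32417353-32418017), with 53.0, 216 and 160.

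The first step, from MLP-F up to MLP, outscored the second, from C up to MLP-F, in 235 regions (62.5%), and the second outscored the first in 141 (37.5%). Over the whole lists, 36.3% of MLP vs. MLP-F regions and 18.8% of MLP-F vs. C regions scored 100 or more. Where the first step was higher the median scores were 101 (MLP vs. MLP-F) and 59.5 (MLP-F vs. C). Where the second was higher they were 59.5 and 80.5. The split was made by these same scores, so the medians differ by construction. The MLP vs. C medians of these sets were 294 and 267. All 22 regions with MLP vs. C scores of 1000 or more were among the 235. Both lists made with MLP share that library and the same ends, so this is not independent of the split. The steps share the MLP-F library, and their scores rest on different depths, so a higher score need not mean a larger difference in methylation.

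**Figure D3:**
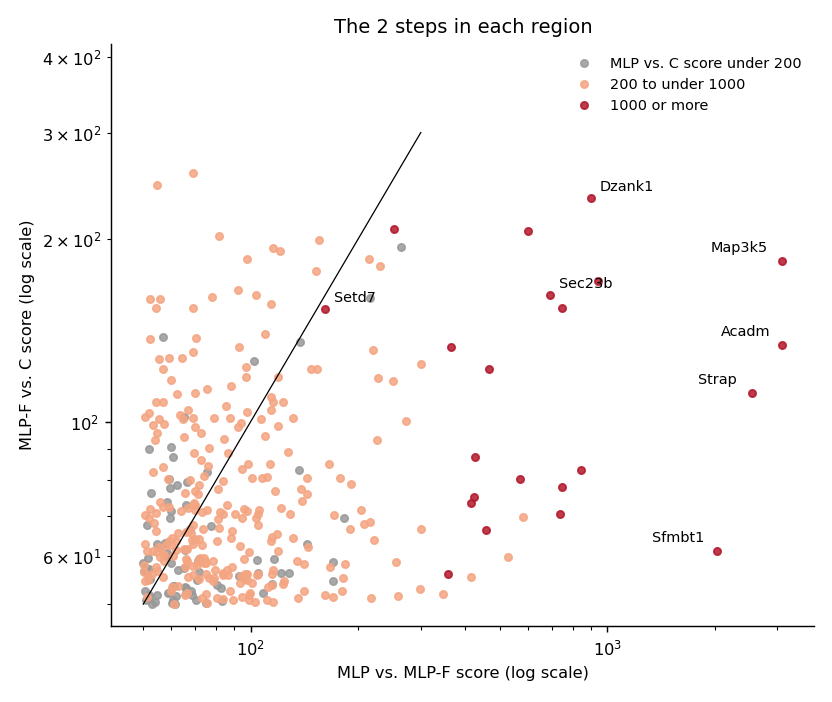
MLP vs. MLP-F score against MLP-F vs. C score of each of the 376 regions (both log scales), coloured by the MLP vs. C score; the line marks equal scores and 7 regions carry the names of their annotated genes. All 22 regions with an MLP vs. C score of 1000 or more (dark red) lie to the right of the line, with MLP vs. MLP-F scores of up to 3100 and MLP-F vs. C scores no higher than 234.

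The positions of a region in the 3 lists were not 3 separate observations. In both lists where MLP was the treatment library, start and end were the same to the base in 376 of 376 regions, as in all 14194 overlapping pairs of the full lists. In the MLP-F vs. C list, with MLP-F as treatment, 0 of 376 had the same start and end, nor had any of the 8175 overlapping pairs. Only the ends in the MLP-F vs. C list thus add a position of their own.

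With the same ends in both lists made with MLP, every base shared with the MLP-F vs. C region was in all 3 lists, so a common base in all 376 regions follows from those ends and is no finding. The shared stretch was a median of 560.5 bp (8 to 1993 bp), or 77.4% of the region (1.28 to 100%). The MLP-F vs. C region covered 66 regions from end to end, and it covered under 50% of 59. Where at least 50% was shared, the MLP vs. C score was the highest of the 3 in 313 of 317 regions (98.7%), and where less was shared it was in 41 of 59 (69.5%). Of the 22 regions that lacked this order, the pair tied at 3100 included, 18 shared under 50%. The 13 with the highest score in MLP vs. MLP-F had MLP vs. C scores of 53.0 to 251, and the 7 with the highest score in MLP-F vs. C had 50.7 to 112, so both sets lay below the median of the 376. Among the 7, a region on chromosome 2 (chr2:20495413-20496149) scored 70.3, 56.8 and 138 and was nevertheless covered whole. The median MLP vs. C scores were 141 in the 59 regions with under 50% shared, 303 in the 251 with 50% to under 100% and 289 in the 66 covered whole. The poorly shared regions were also longer, with a median of 1020 bp beside 789 bp and 659 bp. The 3 regions just inside the rule shared 8 bp (chr10:7065459-7066082, scores 85.8, 137 and 135), 34 bp (chr4:185584688-185585301, 70.0, 75.6 and 82.7) and 43 bp (chr8:32417353-32418017, 53.0, 216 and 160). Just outside stood regions 13, 14 and 20 bases from the nearest MLP-F vs. C region, with scores in the order of the lists of 93.2, 76.3 and 56.4 (chr11:28684917-28685655), 170.2, 52.2 and 58.7 (chr3:132253376-132253976) and 140.1, 64.7 and 64.2 (chr19:26729407-26729984). A further 293 regions, the last 3 included, were in both MLP lists with an MLP-F vs. C region within 1 kb but no common base.

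**Figure D4:**
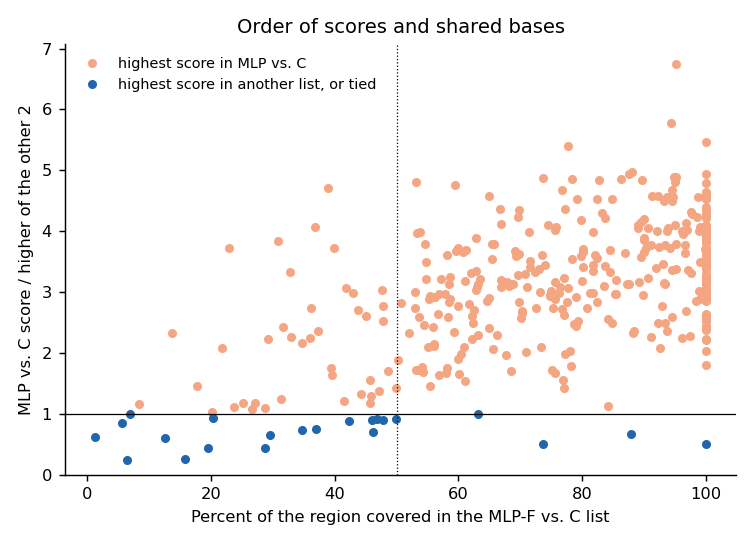
Ratio of the MLP vs. C score to the higher of the other 2 scores against the percent of the region covered in the MLP-F vs. C list, for 376 regions; the solid line marks equal scores and the dotted line 50% covered. Of the 22 regions at or below the solid line (blue), 18 lie left of the dotted line.

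The regions were somewhat longer than the list. Their median length was 768 bp (326 to 5062 bp), beside 670 bp for all MLP vs. C regions and 724.5 bp, 659 bp and 630 bp for the regions also in the MLP vs. MLP-F list only, also in the MLP-F vs. C list only and in neither. A length of 1000 bp or more was reached by 89 of them (23.7%), beside 15.4% of the list. A longer region meets another list more easily, so length is not independent of the rule.

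Gene names were taken from the study's annotation, which gives the nearest gene, the place and the nearest repeats for the regions the study selected by FDR. It named 20 of the 376 (5.32%) by the same start and end, 17 of them with a gene symbol, and the other 356 are known by position only. By start and end these 356 were not in the annotated FDR sets of the study, so no call by FDR is known for them here. Of all 34126 MLP vs. C regions, the 376 included, the annotation named 51 with scores of 1000 or more and 1117 lower ones. Of the 20, 13 were labelled intronic, 4 downstream and 3 upstream. Counts by place are not given here for all annotated regions, so nothing particular to the 376 is read from these labels. The MLP vs. C scores of the 20 fell in separate bands, with 14 at 1031 or more and 6 between 123 and 130.1. Since the annotation holds only selected regions, these bands say nothing of the 376 at large. The scores that follow are given in the order MLP vs. C, then MLP vs. MLP-F, then MLP-F vs. C.

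Among genes of metabolism, the region downstream of Acadm, which encodes the medium-chain acyl-CoA dehydrogenase of mitochondrial fatty acid oxidation, scored 3100, 3100 and 134 (chr2:251899516-251902669). It was 3154 bp long, the second longest, and the only one met by 2 MLP-F vs. C regions, of 607 bp (score 53.6) and 1386 bp (score 134). These covered 63.2% of it. An intronic region of Hsd3b5, a hydroxysteroid dehydrogenase of the liver, scored 123, 58.1 and 73.8 (chr2:193252536-193253052). Acadm was thus at the top of both MLP lists and Hsd3b5 in the lower band, with its second step above its first.

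Genes of the secretory pathway supplied 4 regions. Sec23a and Sec23b encode alternative forms of a coat protein of the vesicles that leave the endoplasmic reticulum, and both had an intronic region. That of Sec23a scored 1381, 458 and 66.4 (chr6:79667358-79668973, 1616 bp) and that of Sec23b 1676, 689 and 162 (chr3:133138572-133140689, 2118 bp). The shared stretch was 98.8% of the region at Sec23a and 55.9% at Sec23b. An intronic region of Tpst1, which adds sulphate to tyrosines of secreted proteins in the Golgi, scored 1355, 569 and 80.4 (chr12:27636878-27637605) and was covered whole in the MLP-F vs. C list. The region upstream of Alg2, a mannosyltransferase of N-glycan assembly, scored 124, 59.9 and 58.4 (chr5:64072555-64073330).

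Genes of chromatin, DNA repair and transcription supplied 4 more. Beside Sfmbt1, Setd7, a lysine methyltransferase of histones and other proteins, had an intronic region with nearly equal steps, at 1093, 162 and 154 (chr2:140421411-140422651, 1241 bp, 95.2% shared). Fanca, a subunit of the Fanconi anaemia core complex that repairs DNA crosslinks, had an intronic region at 1031, 414 and 73.6 (chr19:53637752-53638686). The region downstream of Prrx1, a homeobox transcription factor of mesenchyme, scored 130.1, 55.7 and 62.1 (chr13:79053132-79053565). Sfmbt1 and Setd7 differed in the balance of their steps, since the MLP-F vs. C score was 61.1 at the former and 154 at the latter.

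Genes of signalling and the cell membrane supplied 5. The longest of all 376 regions, 5062 bp in an intron of RGD1306565, scored 3100, 3100 and 184 (chr1:15324363-15329424). RefSeq gives RGD1306565 as a synonym of Map3k5, a kinase of the stress-activated MAP kinase cascade. Only 348 bp of it, 6.87%, lay in the MLP-F vs. C region, at one end. Upstream of Strap, whose product binds TGF-beta receptors, the scores were 3100, 2551 and 112 (chr4:174838425-174840403, 1979 bp, 41.5% shared). An intronic region of Pftk1, a cyclin-dependent kinase now named Cdk14, scored 1896, 846 and 83.1 (chr4:25877797-25878610). Sntb2, a syntrophin that links membrane proteins to the dystrophin complex, had an intronic region at 1091, 423 and 75.2 (chr19:36791670-36792591). The region downstream of Pla2r1, a receptor for secreted phospholipase A2, scored 129, 71.1 and 58.8 (chr3:42122700-42123116). At Acadm, Map3k5 and Strap the MLP vs. MLP-F score was 2551 or more while the MLP-F vs. C score stayed under 200, and each of these regions was long with an MLP-F vs. C region over part of it.

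The other named regions were intronic. RGD1311344, now Dzank1, scored 3100, 901 and 234 (chr3:133040310-133041705, 1396 bp), which was the third highest MLP-F vs. C score of the 376, and Nhlrc2 scored 1692, 426 and 87.3 (chr1:262882420-262884806, 2387 bp). The annotation gave an identifier but no symbol for 3 regions. These were one upstream of ENSRNOG00000042375 (chr19:44740071-44741085), at 3013, 943 and 171, one in an intron of ENSRNOG00000025891 (chr17:51936165-51936725), at 129, 65.6 and 61.3, and one downstream of ENSRNOG00000037511 (chr14:109963670-109964480), at 126, 171 and 54.5. The last was the only one of the 20, the tied Acadm and Map3k5 apart, in which MLP vs. C did not have the highest score.

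**Figure D5:**
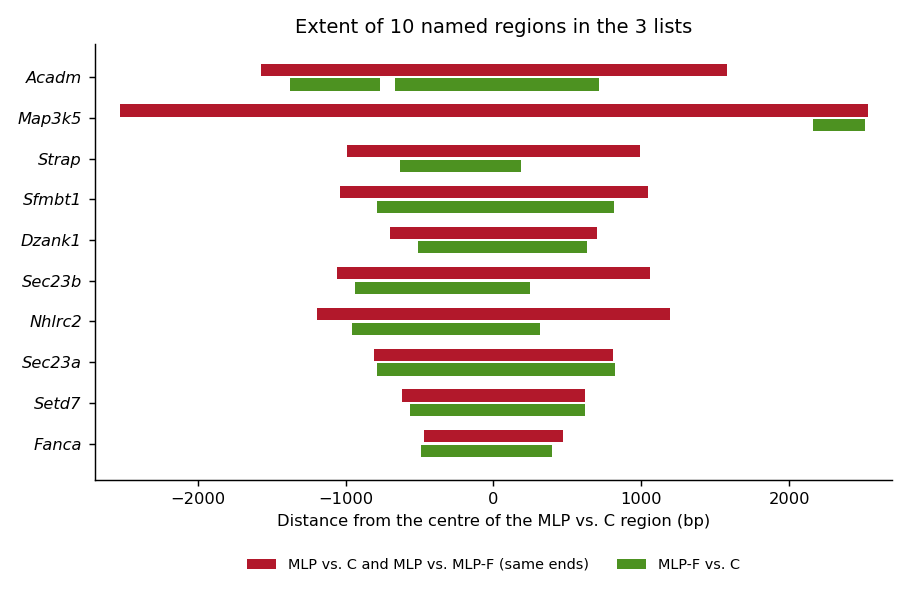
Extent of 10 named regions in bp from the centre of the MLP vs. C region; red bars are the region in both lists made with MLP, which have the same ends, and green bars what the MLP-F vs. C list holds there. The green bar spans 6.87% of the red bar at Map3k5 and 98.8% at Sec23a, and Acadm has 2 green bars.

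Repeats were named for all of the 20 annotated regions except that of Pla2r1. A tandem repeat was named for 14 of the 14 regions in the upper band, Acadm, Strap, Sfmbt1, Sec23a and Fanca included, and for 2 of the 6 lower ones, Hsd3b5 and Alg2. Over all annotated MLP vs. C regions on these chromosomes it was named for 50 of 51 with scores of 1000 or more (98.0%) and for 277 of 1117 lower ones (24.8%). LINE 1 repeats, copies of a mobile element, were named for 0 of the 14 and for 4 of the 6. These 4 were Prrx1, Alg2 and a pair of the regions without symbol. Over all annotated regions LINE 1 repeats were named for 4 of 51 (7.84%) and 284 of 1117 (25.4%). With 6 regions in the lower band, nothing particular to the 376 is read from these counts. Since the study searched for the repeat closest to each region, one that it names may lie outside it, and this pattern over all regions the study annotated was known before these 20 were chosen. Reads from copies of a repeat can be placed at 1 copy, and the part of this in the scores was not tested.

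Of the 22 regions with MLP vs. C scores of 1000 or more, 8 had no annotation. They were chr1:212567442-212568453 at 2183, 598 and 207, chr13:108554132-108554940 at 2149, 746 and 154, and chr3:86668240-86669532 at 1604, 466 and 122. On chromosome 14 the region from 21302911 to 21304555 scored 1557, 749 and 78.0, and on chromosome 16 that from 48858466 to 48859353 scored 1003, 365 and 133. On chromosome 8 a region of 603 bp (11612033 to 11612635) scored 1145, 252 and 208 and was covered whole in the MLP-F vs. C list. The last 2 were neighbours on chromosome 11 with 423 bases between them, at 1534, 738 and 70.4 (chr11:36734437-36737115, 2679 bp) and 1188, 357 and 56.2 (chr11:36737539-36739979, 2441 bp), and both were among the 5 longest of the 376.

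Of the 10 highest MLP-F vs. C scores, 9 were at regions without annotation, as were 356 of all 376 regions, so nothing is read from this count. The highest of all, 257, was at chr2:3237180-3237658, where MLP vs. C scored 920.1 and MLP vs. MLP-F 68.8. The next, 246, was at chr7:18844134-18844629, with 550.0 and 54.8. Among the next 8 were Dzank1 and the unannotated regions on chromosomes 8 and 1 given above. The other 5 were chr14:3154745-3155540 (654, 81.6 and 202), chr7:73679177-73679934 (577, 156 and 199.8), chr3:163934092-163934544 (882, 116 and 193), chr8:126363502-126364203 (861, 121 and 191) and chr17:76410252-76411009 (69.8, 264 and 194). In the last of these the MLP vs. C score was the lowest of the 3 and 15.8% of the region was shared. An MLP-F vs. C score of 150 or more was held by 28 regions.

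A further 9 of the 356 regions without a name of their own lay within 10 kb of a region that the study annotated. They were picked out after their values were seen, and no such share is given here for the whole list. Near the intronic region of Itsn1, a scaffold protein of endocytosis, chr11:31854476-31855230 scored 379.7, 97.7 and 104 at 4378 bases. Near that of Ctdp1, a phosphatase of RNA polymerase II, chr18:77303971-77305851 scored 306, 118 and 65.3 at 5916 bases. Near that of Slc10a6, a transporter of sulphated steroids, chr14:7270550-7271130 scored 51.0, 62.1 and 78.6 at 9720 bases. Others were near annotated regions of Radil (469, 65.2 and 94.3) and Capn5 (86.0, 144 and 62.8). Which gene these regions belong to is not known here.

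The regions lay on all 20 chromosomes. Of neighbouring pairs, 2 were within 1 kb, 4 within 10 kb, 10 within 100 kb and 68 within 1 Mb. Such counts are not given here for the whole list, so whether the regions lie closer together than others is not known. The closest pair was on chromosome 3, with 360 bases between chr3:51645830-51646772 (349, 72.6 and 86.6) and chr3:51647133-51647769 (516, 92.9 and 133), and the pair on chromosome 11 came next. On chromosome 2, 3417 bases lay between chr2:28243847-28244647 (232, 87.3 and 52.5) and chr2:28248065-28248723 (211, 66.4 and 59.0). On chromosome 4, a region without annotation (chr4:25885637-25886019; 286, 86.2 and 55.8) stood 7026 bases from that of Cdk14, which scored well above it in all 3 lists. The regions of Dzank1 and Sec23b were 96866 bases apart on chromosome 3. Chromosome 1 held the most, 41. As a share of the MLP vs. C regions of the chromosome, the 376 ran from 16 of 2147 (0.745%) on chromosome 5 to 35 of 2248 (1.56%, interval 1.12 to 2.16%) on chromosome 3, and the intervals of 19 of the 20 chromosomes held the share of the whole list. Chromosome 3 was the exception, by a small margin and among 20 intervals.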

How the data were processed

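MBD-seq of liver DNA gave 3 libraries, C, MLP and MLP-F, of 1 pool each. The authors captured methylated DNA, placed read pairs on rn4 by Bowtie, with 1 alignment kept per pair, and ran MACS on each library against another. CASAVA, Bowtie and rn4 stand in the submitters' processing notes. The version of each program, MACS included, was not given in the sources used here. Deposited lists hold a position and a score for each region, which the authors took from MACS as 10 times the -log10 p. No other value of the study was used, only gene, place and repeat names and primers.

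Starts were converted to 1-based positions. Overlap meant at least 1 bp on chromosomes 1 to 20, and a region that met 2 regions of a list took the higher score. Intervals are 95% Wilson intervals for shares and order-statistic intervals for medians, over regions. With 1 library per group nothing was tested. The overlap search was tested on simulated lists. The members and the named regions were chosen with earlier results of these data known. Named are regions in the study's annotation, the 10 highest in each list, the 5 longest, the closest groups and the 3 on either side of the rule. Others were chosen after their values were seen. Of the 20 annotated regions, 17 had a symbol matched by name in the RefSeq table of GRCr8. Alternatives were other overlaps, distances, score minimums, chromosomes, list lengths and merging. The scripts ran under pandas 2.3.3, numpy 2.4.6, SciPy 1.17.1, matplotlib 3.10.9 and Python 3.11.15.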

Additional observations from a re-analysis of the deposited data

Results flagged for a closer look

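On chromosomes outside the rule, 12 MLP vs. C regions on chromosome X (of 938, 1.28%) and 11 on unplaced sequence (of 934, 1.18%) also overlapped both other lists, and they were singled out because no comparison above used them. On chromosome X their scores were 169.7 to 615 (median 345) in MLP vs. C, 55.6 to 175 (median 88.8) in MLP vs. MLP-F and 50.6 to 154 (median 67.6) in MLP-F vs. C. On unplaced sequence they were 92.9 to 349 (median 237), 51.3 to 322 (median 68.9) and 54.9 to 202 (median 67.2). The 95% Wilson intervals of these shares, 0.733 to 2.22% and 0.659 to 2.10%, held the 1.10% of chromosomes 1 to 20.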

How the results depend on the processing

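No paired analysis was possible because each group is 1 pooled library, and no library could be left out. Of the 376 regions, 316 stayed with at least 50% of the region covered in each other list (0.926% of the list) and 303 with a reciprocal overlap of 50% (0.888%). The MLP vs. C score was then the highest in 99.1% and 99.7%, and its median was 303 under the reciprocal overlap. With a distance of 1 kb counted as listed the number was 906 (2.65%), the median MLP vs. C score 145, the median length 714.5 bp, the MLP vs. C score the highest in 69.5%, and a base was common to all 3 lists in 41.5%. Score minimums of 60 and 100 gave 177 (0.681%) and 36 (0.343%) regions, with medians of 379.7 and 839.6 in MLP vs. C, 97.7 and 188 in MLP vs. MLP-F and 80.8 and 133 in MLP-F vs. C. At 100 the median length was 839.5 bp and 88.9% had the highest score in MLP vs. C. With lists of equal length the medians were 322.5 in MLP vs. C and 94.8 in MLP vs. MLP-F. A score minimum raises the medians and lowers the number by its construction. All other values stayed within their intervals (numbers of regions within 1.5 times), including 399 regions with chromosome X and unplaced sequence and 381 regions counted from the MLP-F vs. C list. Requiring a base common to all 3 lists could not change any value, since both lists made with MLP give these regions the same ends. Depth could not be varied without read counts.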
